A study of Mus musculus with 8 samples.

Results

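Fgfr1 and Fgfr2, which encode receptors for fibroblast growth factors (FGFs), and Etv4, which encodes an ETS transcription factor of the PEA3 group, were followed across the epithelial classes of the mouse mammary gland at puberty. These are 3 of the 14883 genes in the count table, and they were chosen by name because earlier work on these data showed that their levels differ between classes, so their class levels below are a description with no test. The samples were 8 sequencing libraries of 96 wells each, 4 from plate 1 and 4 from plate 2, made from mammary epithelial cells of mice of 5 weeks whose strain is given as mixed. Ducts and their terminal end buds, the structures from which ducts elongate, had been micro-dissected, and single live cells were sorted into wells. No treatment, genotype or transgene is named, and the labels do not say which library or well came from ducts and which from end buds, nor which animal. Each p-value here thus measures spread among libraries alone, and that spread may be technical. Molecules were counted with SORT-seq, a plate method built on CEL-seq2 in which barcodes mark the well and the molecule and reads come from transcript 3′ ends.

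FGF receptors are tyrosine kinases at the cell surface. A ligand binds together with heparan sulfate chains, the receptors pair, and the signal runs through adaptors and the MAP kinase cascade to transcription factors that include Etv1, Etv4 and Etv5. Sprouty and Spred proteins and the MAP kinase phosphatases damp the same cascade, and several of them are induced by it. In the mammary gland, FGF signalling through Fgfr2 is known for its part in branching and end bud growth, with ligands made by the stroma as well as the epithelium. In the mm10 build, Fgfr1 lies on the plus strand at chr8:25518759-25575718. Fgfr2 lies on the minus strand at chr7:130162451-130266808. Etv4 lies on the minus strand at chr11:101769747-101785310. All are protein-coding genes, and 3′ counts do not separate the splice forms of the receptors.

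Of 768 wells, 114 held at least 1500 transcripts and 500 genes and were kept as cells. A cell was called basal where Acta2, Tagln and Myl9 together outnumbered Krt8, Krt18 and Krt19, and luminal where the reverse held. A luminal cell was hormone-sensing where Prlr, the prolactin receptor, outnumbered Trf, and secretory otherwise. This gave 66 basal, 14 hormone-sensing and 28 secretory cells, with medians of 13450.5, 17924 and 7102.5 transcripts, and 6 cells with equal sums were left unclassified. Markers that the rule did not use followed the names. Krt5, Krt14 and Trp63 had 610, 316 and 247 transcripts in basal cells and 0 in both luminal classes. Pgr, Cited1 and Foxa1 reached 10.2, 22.5 and 8.15 transcripts per 10000 in hormone-sensing cells, and Csn3, Lalba and Elf5 reached 69.7, 15.1 and 4.48 in secretory cells. Basal cells came almost only from libraries 2 and 4 of each plate and luminal cells from libraries 1 and 3, so in that comparison an effect of class and an effect of the library cannot be told apart. The luminal classes shared libraries.

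In 8 of the 66 basal cells, all on plate 1, the markers of another cell type outnumbered all epithelial markers. Their median was 50.2 endothelial and 103.2 adipocyte-list transcripts per 10000, the latter mostly Fabp4, and 5 of them sat among the 8 basal cells of plate 1 library 2. The 8 basal cells led by another type's markers held 8 Fgfr1, 1 Fgfr2 and 1 Etv4 transcripts in all. Without cells of this kind the basal levels were 2.62, 2.11 and 1.06 per 10000 for Fgfr1, Fgfr2 and Etv4, against 2.59, 2.04 and 1.02 with them. Lymphocyte markers led 1 secretory cell, and without it the secretory Fgfr1 level was 4.79 in place of 4.72.

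Fgfr1 was counted in every epithelial class. Its level, the share of a class's transcripts pooled over cells and given per 10000, was 4.72 in secretory cells (140 transcripts; 95% Poisson interval 3.97 to 5.56), 2.59 in basal cells (291 transcripts; 2.30 to 2.91) and 1.24 in hormone-sensing cells (42 transcripts; 0.897 to 1.68). These intervals, and those of the ratios below, cover counting error only. Wells not kept as cells stood at 1.44 (wells under 500 transcripts) and 2.38 (the 75 others). The hormone-sensing level was not above these, and the basal interval included 2.38. The part of free RNA was not tested. By library, basal cells stood at 2.14 and 1.64 on plate 1 (libraries 2 and 4) and at 2.73 and 2.79 on plate 2, a mean of 2.32 ± 0.54 (SD, n = 4 libraries). Hormone-sensing cells stood at 0.839 in plate 1 library 3 and at 1.03 and 2.17 in plate 2 libraries 1 and 3, a mean of 1.35 ± 0.72 (SD, n = 3). Secretory cells stood at 3.05 and 9.54 in plate 1 libraries 1 and 3 and at 1.62 and 3.24 in plate 2 libraries 1 and 3, a mean of 4.36 ± 3.53 (SD, n = 4).

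The secretory value of Fgfr1 leaned on plate 1 library 3, where 1 cell held 34 of the 72 transcripts. Without that library the secretory level was 3.07. The 3 libraries with both luminal classes each had less Fgfr1 in hormone-sensing than in secretory cells, with ratios of 0.0879 in plate 1 library 3 and 0.636 and 0.669 in plate 2 libraries 1 and 3. The counting intervals of the plate 2 ratios ran past 1, to 5.73 and 1.22. Basal libraries overlapped both luminal classes, so in the order secretory, basal, hormone-sensing no neighbours differed beyond the spread between libraries.

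Fgfr2 separated the luminal classes. Its level was 9.06 per 10000 in hormone-sensing cells (306 transcripts; 8.08 to 10.1), 2.04 in basal cells (229 transcripts; 1.78 to 2.32) and 0.101 in secretory cells (3 transcripts; 0.0208 to 0.295). Hormone-sensing cells stood at 6.43 in plate 1 library 3 and at 10.8 and 9.06 in plate 2 libraries 1 and 3, a mean of 8.77 ± 2.21 (SD, n = 3). Secretory cells of the same libraries held 1 transcript each, at 0.133, 0.808 and 0.0877 per 10000, and those of plate 1 library 1 held none. The ratio of hormone-sensing to secretory cells was 89.7 (30.4 to 437), and 48.5, 13.4 and 103 in the 3 shared libraries, with wide intervals because the lower level rests on 1 transcript.

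Basal cells stood between the luminal classes in Fgfr2. They were at 0.143 and 1.64 per 10000 in plate 1 libraries 2 and 4 and at 2.49 and 1.82 on plate 2, a mean of 1.52 ± 0.99 (SD, n = 4). Every hormone-sensing library was above every basal one, and the pooled ratio was 4.44 (3.73 to 5.30). The lowest basal library, plate 1 library 2, overlapped the secretory libraries. It held 1 Fgfr2 transcript in 8 cells, and its 3 cells not led by another type's markers had a level of 0.251.

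Etv4 was found almost only in basal cells. Its level was 1.02 per 10000 there (115 transcripts; 0.846 to 1.23) and 0.0889 in hormone-sensing cells, where 2 cells of plate 2 library 1 held all 3 transcripts. None was counted among 296912 transcripts of secretory cells, which allows a level of up to 0.101, so the basal level was at least 10.1-fold higher against that floor. The exact interval of the ratio, which also takes in the counting error of the basal level, starts at 8.11. Basal libraries stood at 1.57 and 1.16 on plate 1 and at 1.07 and 0.767 on plate 2, a mean of 1.14 ± 0.33 (SD, n = 4). Every luminal library had a lower value, at 0.206 or less. The secretory 0 of plate 2 library 1, among 12378 transcripts, allows up to 2.42, so that value is not shown to lie below the basal ones. Against hormone-sensing cells the basal level was 11.5-fold higher (3.85 to 56.7), and against all luminal cells 21.7-fold (7.23 to 107). In plate 1 library 2 a single cell held all 11 Etv4 transcripts, and the same cell held all 6 transcripts of Mki67, a marker of dividing cells.

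**Figure D1:**
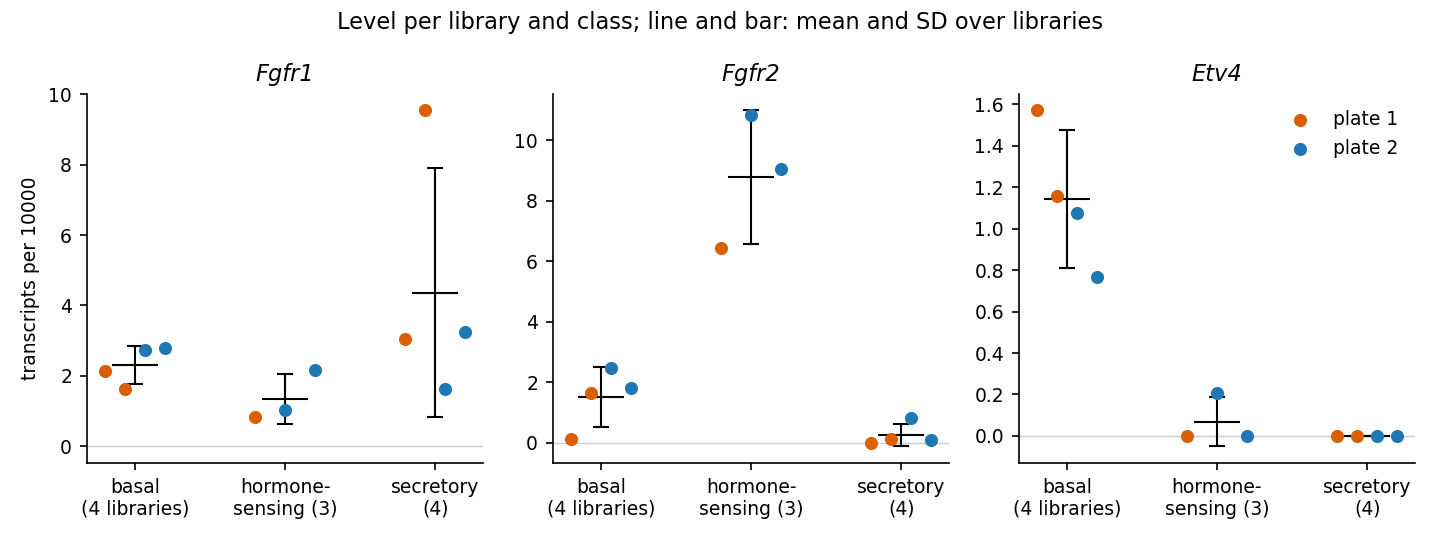
Transcripts per 10000 of Fgfr1, Fgfr2 and Etv4 (y axes, a scale for each panel) in basal, hormone-sensing and secretory cells; each point is a library with at least 3 cells of the class, coloured by plate, and the line and bar give the mean and SD over libraries. Hormone-sensing libraries lie at 6.43 to 10.8 for Fgfr2, above all others, basal libraries at 0.767 to 1.57 for Etv4, and 1 secretory library at 9.54 for Fgfr1.

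Shares of cells followed the same order as the levels at equal depth. With each cell thinned to 1500 transcripts, which kept every cell, Fgfr1 was expected in 32.2% of basal, 16.4% of hormone-sensing and 41.1% of secretory cells, against 80.3%, 85.7% and 78.6% unthinned. Fgfr2 was expected in 23.0%, 67.5% and 3.19%, against 71.2%, 92.9% and 10.7%. Etv4 was expected in 10.5%, 0.806% and 0%, against 47.0%, 14.3% and 0%. The 0 of 28 secretory cells with Etv4 allow a share of up to 10.7% of cells with a transcript at their depth. Fgfr2 was lowest in secretory cells, with 1 transcript in each of 3 of 28 cells. Wells not kept as cells held more of it, 1.80 per 10000 in 579 wells under 500 transcripts and 3.31 in the 75 others, near the basal level of 2.04. The part of free RNA in these values was not tested.

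Most basal cells had transcripts of both receptors, without thinning to equal depth. In 42 of 66 basal cells Fgfr1 and Fgfr2 were found together, 24 held Etv4 as well, and 7 held none of the 3 genes. Both receptors were found in 11 of 14 hormone-sensing cells, and in 2 of 28 secretory cells. The Fgfr1 level of hormone-sensing cells was not above that of wells not kept as cells. Basal levels were 2.59 per 10000 for Fgfr1 and 2.04 for Fgfr2. Such wells stood at 1.44 and 2.38 for Fgfr1 and at 1.80 and 3.31 for Fgfr2. Among 64 basal cells of libraries 2 and 4, the levels of the receptors were nearly unrelated (Spearman's rho 0.11), and Etv4 followed neither Fgfr1 (−0.20) nor Fgfr2 (0.13). These coefficients run over cells that share 4 libraries and differ in depth, and Etv4 itself rose with depth (rho 0.52).

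The other receptors of the family were scarce. Fgfr3 had 2, 3 and 6 transcripts in basal, hormone-sensing and secretory cells, and Fgfr4 had 7, 0 and 0. Fgfrl1, whose product lacks the kinase domain, had 48, 5 and 7.

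For the tests, transcripts were summed per library and class and compared with edgeR's quasi-likelihood test, with Benjamini-Hochberg adjustment over all genes tested. Between 4 basal and 4 luminal sums, 276 of 3420 genes (8.07%) were higher in basal cells and 229 (6.70%) lower, 14.8% in all. In this fit Etv4 was 4.35 ± 0.73 (SE) higher in basal sums on the log2 scale, Fgfr2 differed by −1.47 ± 0.61 and Fgfr1 by −0.26 ± 0.38, all 3 without a p because the contrast chose them. The sign for Fgfr1 was not stable. It was −1.01 on plate 1 alone, 0.51 on plate 2 alone and 0.01 without plate 1 library 3. Between the luminal classes, within the 3 shared libraries, Fgfr2 was 5.35 ± 0.79 higher in hormone-sensing sums and Fgfr1 differed by −1.85 ± 0.63, or −0.66 without plate 1 library 3.

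The plates gave a comparison that had no part in choosing the genes. With class in the model, 2 of 5031 genes (0.0398%) passed an adjusted p of 0.05, both lower on plate 2, 304 had an unadjusted p under 0.05, and DESeq2 called 4. None of the 3 genes passed in this fit. Fgfr2 had 16.2 and 187 CPM in the basal sums of plate 1 against 286 and 211 on plate 2, and 91.1 and 434 in the luminal sums against 1112 and 427. Its log2 change on plate 2 was 1.35 ± 0.55 (SE; edgeR, unadjusted p = 0.0291, adjusted p = 0.777). With no filter on low counts it passed, at 1.45 (adjusted p = 0.0206), and over the other alternatives the adjusted p ran from 0.372 to 1.00. The luminal sums overlapped, the basal ones did not, and the sum of plate 2 library 1, which held 7 of the 14 hormone-sensing cells, was the highest. The lowest basal value, that of plate 1 library 2, rests on 1 transcript in 8 cells. Without cells led by another type's markers that sum had too few cells, and the change was 1.07. Fgfr1 differed by −0.21 ± 0.40 (adjusted p = 0.989) and Etv4 by −0.18 ± 0.66 (adjusted p = 0.991). A class-by-plate term gave an unadjusted p of 0.0532 for Fgfr1, 0.795 for Fgfr2 and 0.0953 for Etv4 (adjusted p = 1.00 for each), so no plate difference that depends on class was shown.

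In the rest of the pathway Fgf1, Ext1, Dusp6, Spry1 and Etv5 were higher in basal sums, and Sdc4, Sulf2 and Ets2 lower. The lists had been drawn up with results of these data known, so their counts are a description beside the share over all genes, and the members are left out of them. Of 100 listed genes of the FGF pathway, 42 were tested between basal and luminal sums, 8 were higher in basal sums (19.0%) and 3 lower (7.14%), with a median log2 difference of 0.33 against −0.00012 over all genes. Genes with few luminal transcripts, such as Fgf1 and Spry1, could pass the filter on low counts only through basal sums. The direction of such genes therefore says nothing about the lists.

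Among the ligands, 7 of 16 are in the table and 1 was tested. Fgf1 was 2.88 ± 0.69 higher in basal sums on the log2 scale (adjusted p = 0.0114), with 77 transcripts in basal, 6 in hormone-sensing and 0 in secretory cells. Fgf7 and Fgf10, ligands of Fgfr2 known mainly from stroma, had 1 and 4 transcripts in basal cells and 0 in the luminal classes.

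Co-receptors and heparan sulfate genes went both ways, with 2 of 7 tested higher and 2 lower (median 0.45). Ext1, which builds heparan sulfate chains, was 2.80 ± 0.41 higher in basal sums (adjusted p = 0.000288), and Sdc1, a syndecan that carries them, 1.39 ± 0.34 higher (adjusted p = 0.0134). Sdc4, another syndecan, differed by −1.39 ± 0.33 (adjusted p = 0.0109), and Sulf2, which removes sulfate from the chains, by −2.04 ± 0.49 (adjusted p = 0.0118). The adaptors and kinases of the cascade showed no call, 0 of 16 tested (median 0.13).

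Inhibitors of the pathway were higher in basal sums in 3 of 6 tested and lower in none, with a median of 1.23. Spry1 had 137 transcripts in basal cells against 3 and 10 in hormone-sensing and secretory cells. It could pass the filter on low counts only through basal sums. Dusp6, a phosphatase of the ERK kinases, had levels of 5.68, 0.741 and 0.977 per 10000 in basal, hormone-sensing and secretory cells, and was 2.73 ± 0.35 higher (adjusted p = 0.000121). Spry1, a Sprouty, was 2.52 ± 0.63 higher (adjusted p = 0.0152), and Dusp7 1.38 ± 0.36 higher (adjusted p = 0.0189). Of these 3 calls 1 remained without plate 2 library 4, and 2 without any other library of plate 2 or with no filter on low counts.

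Among the PEA3 factors and other target genes, 2 of 12 tested were higher, 1 was lower and the median was −0.07. Etv5, the nearest relative of Etv4 in the list, had 368 transcripts in basal cells against 3 in hormone-sensing and 25 in secretory cells, and was 2.70 ± 0.64 higher (adjusted p = 0.0109). Egr1, an early response gene, was 1.07 ± 0.22 higher (adjusted p = 0.00407). Ets2 differed by −1.57 ± 0.38 (adjusted p = 0.0125). Other receptor tyrosine kinases gave 0 higher and 2 lower of 6, and these were Kit and Met, at −4.08 ± 0.76 (adjusted p = 0.00207) and −4.00 ± 0.47 (adjusted p = 5.67e-05). Kit stood at 0.258 per 10000 in basal, 0.0296 in hormone-sensing and 7.61 in secretory cells, so basal cells were lower only against secretory cells. Axl, not tested, had 104, 0 and 3 transcripts in these classes. With no filter on low counts 1 kinase of the list was higher and 4 were lower. On plate 1 alone, with 4 sums, 10 of the 13 genes called in these lists could be tested, all 10 with the same sign, and 2 passed. Without plate 2 library 2, 9 of them passed.

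**Figure D2:**
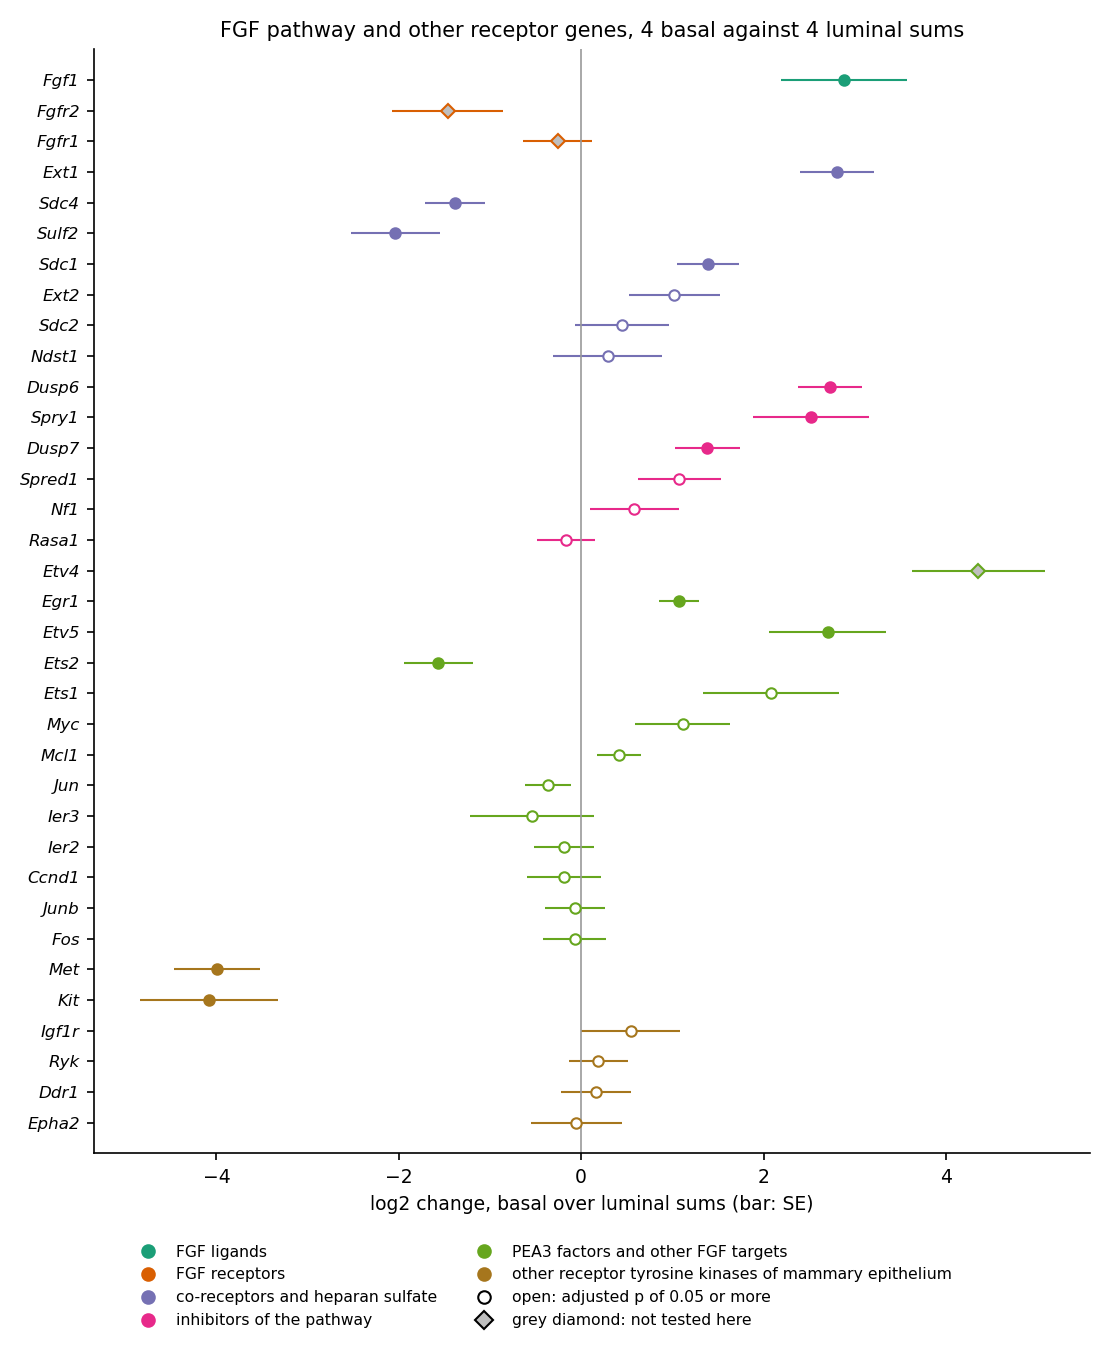
Log2 difference between 4 basal and 4 luminal sums (x axis; points right of 0 are higher in basal sums, bars give the SE) for each tested gene of the FGF lists apart from the adaptors and kinases, and for other receptor tyrosine kinases; filled points passed an adjusted p of 0.05, and grey diamonds are Fgfr1, Fgfr2 and Etv4, given with no test. Dusp6, Spry1, Etv5, Fgf1 and Ext1 lie between 2.52 and 2.88, and Kit and Met near −4.

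Between the luminal classes 241 of 1806 genes (13.3%) passed, 105 (5.81%) higher and 136 (7.53%) lower in hormone-sensing sums. Of 19 tested pathway genes, 0 were higher and 7 lower (36.8%), with a median of −0.27 against 0.10 over all genes. No ligand could be tested. The early response genes made up most of it, with 4 of 9 tested targets lower in hormone-sensing sums, led by Fos at −1.59 ± 0.31 (adjusted p = 6.22e-06) and Egr1 at −2.09 ± 0.42 (adjusted p = 1.21e-05), while Ier2 and Ier3 stood at −1.59 ± 0.56 and −1.52 ± 0.55 (adjusted p = 0.0354 and 0.0452). Flrt3, a membrane protein that binds FGF receptors, differed by −4.32 ± 1.04 (adjusted p = 0.000479), Sulf2 by −1.83 ± 0.65 (adjusted p = 0.0378) and Pik3r1, a PI3 kinase subunit, by −1.68 ± 0.60 (adjusted p = 0.0380). Flrt3 had 2 transcripts in hormone-sensing and 45 in secretory cells. It could pass the filter on low counts only through secretory sums.

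Of 17 other receptor tyrosine kinases 3 were tested, each lower in hormone-sensing than in secretory sums. With so few hormone-sensing transcripts these 3 could pass the filter on low counts only through secretory sums. Their shared direction therefore says nothing about the list. Kinases not tested went both ways, such as Insr (0.533 per 10000 in hormone-sensing and 0.168 in secretory cells) and Ephb4 (0.0592 and 0.606). Kit had 226 transcripts in secretory cells and 1 in hormone-sensing cells, a log2 difference of −7.47 ± 0.87 (adjusted p = 2.58e-15). Met had 86 and 8 (−4.90 ± 0.73; adjusted p = 1.18e-09), and Igf1r 85 and 4 (−4.62 ± 0.79; adjusted p = 1.97e-07). These p-values lean on a spread shared across genes, as 3 libraries leave 2 residual degrees of freedom. Without plate 2 library 1 none of the 10 calls of this comparison passed. Without plate 2 library 3, 3 passed, all of them these receptor tyrosine kinases and none a pathway gene. Without plate 1 library 3, 6 passed. Of the 4 calls among the target genes, 0 remained with no filter on low counts and 1 without the replicate block.

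Pooled over basal cells, Etv4 was higher and Fgfr1 lower where the contractile gene Myh11, smooth muscle myosin heavy chain, was low. The 64 basal cells of libraries 2 and 4 were split at the median Myh11 level of their library, into 35 Myh11-low and 29 Myh11-high cells. Etv4 had levels of 1.84, 1.24, 1.47 and 1.17 per 10000 in the Myh11-low cells of plate 1 libraries 2 and 4 and plate 2 libraries 2 and 4, against 0, 0.662, 0.340 and 0.0770 in the Myh11-high cells. It was higher in Myh11-low cells in 4 of 4 libraries, as were 17.2% of 4304 genes with at least 50 transcripts. In plate 1 library 2 the 0 rests on 2 Myh11-high cells, and the interval of the ratio starts at 0.424. The ratio was 1.88 (0.273 to 80.8) in plate 1 library 4. Only the plate 2 libraries differed beyond counting error, at 4.32 (1.96 to 11.2) and 15.2 (2.50 to 624). Pooled, Etv4 was 1.38 against 0.249, a ratio of 5.55 (2.81 to 12.5). Without plate 2 library 2 the ratio was 10.1.

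Depth differed along this split. Myh11-low cells had a median of 21255 transcripts and Myh11-high cells 10595, and 7 of the former and 0 of the latter were led by another type's markers. Thinned to 1500 transcripts, Etv4 was expected in 14.8% and 3.29% of cells. Without cells led by another type's markers the ratio was 5.52, and on plate 2 alone, which had no such basal cell, 5.70, with Etv4 higher in both libraries, as were 38.4% of genes. Over the 64 cells Spearman's rho between Etv4 and Myh11 was −0.38. It was −0.64 in the 31 cells of plate 2 library 2 and −0.49 in the 18 cells of plate 2 library 4. On plate 1 it was −0.22 in the 8 cells of library 2 and 0.09 in the 7 cells of library 4.

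Fgfr1 was lower in the Myh11-low cells in 4 of 4 libraries, as were 7.13% of genes, and 27.9% were lower in both libraries of plate 2. Its levels were 1.84, 1.13, 2.20 and 2.75 per 10000 in Myh11-low cells, in the same order of libraries, against 3.95, 4.64, 3.69 and 2.85 in Myh11-high cells, and the pooled ratio was 0.643 (0.506 to 0.818). The ratio in plate 1 library 2 was 0.464, with an interval (0.138 to 2.00) that included 1. In plate 2 library 4 the ratio was 0.965 (0.631 to 1.49), its thinned share went the other way (40.5% in Myh11-low and 29.1% in Myh11-high cells), and so did rho (−0.19). Fgfr2 stood at 1.98 against 2.19, a ratio of 0.906 (0.685 to 1.21), and at 1.07 without plate 2 library 2. No difference in Fgfr2 was detectable along Myh11 at this depth.

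**Figure D3:**
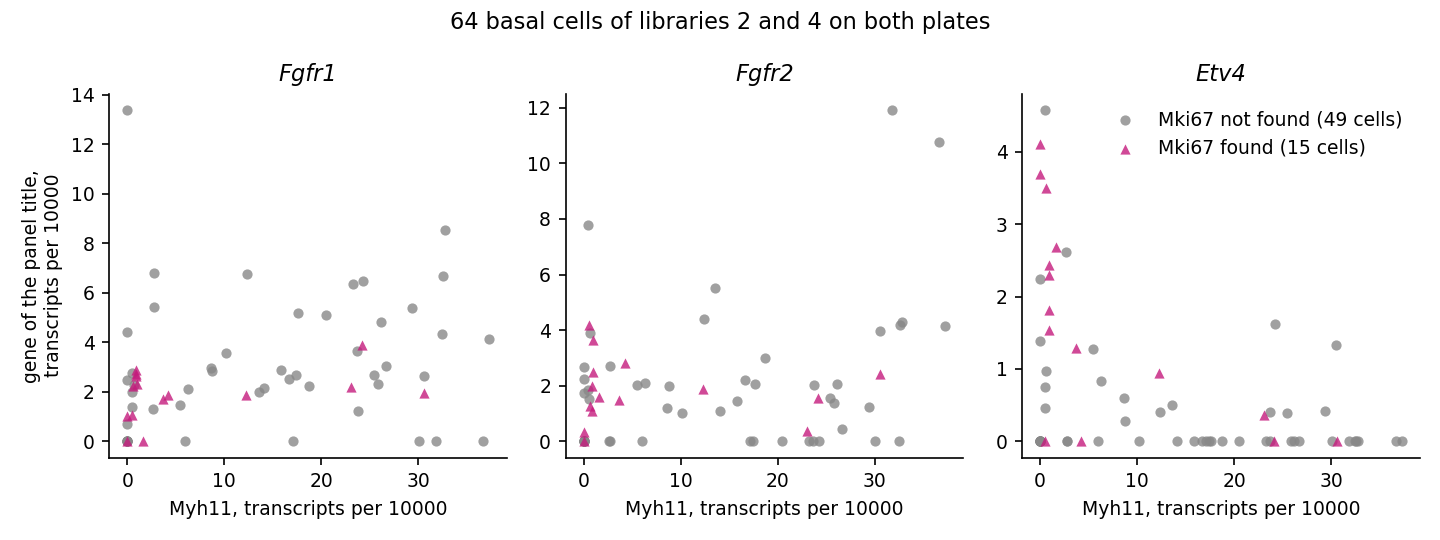
Level of Fgfr1, Fgfr2 and Etv4 (y axes, transcripts per 10000) against that of Myh11 (x axes, same unit) in 64 basal cells of libraries 2 and 4 on both plates; pink triangles are the 15 cells in which Mki67 was found and grey circles the 49 others. High Etv4 values gather at low Myh11, and Fgfr1 and Fgfr2 values spread along the whole axis.

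Etv5 followed Etv4 across Myh11. It was higher in the Myh11-low cells in 4 of 4 libraries, at 4.02 against 1.75 per 10000, a ratio of 2.30 (1.75 to 3.07). In plate 1 library 2 its 0 rests on 2 Myh11-high cells, too few to give a direction there. Etv1, the third PEA3 factor, was higher in 3 of 4, with a ratio of 1.71 (0.969 to 3.19). Of 15 targets with enough transcripts, Etv4 among them, 5 were higher in Myh11-low cells in all 4 libraries and 0 lower, beside 17.2% and 7.13% of all genes. In both libraries of plate 2, 6 of the 15 were higher and 7 lower, beside 38.4% and 27.9% of all genes. The list's median log2 ratio was −0.20 against 0.09 over all genes, so no shift of the list towards Myh11-low cells was shown. The others higher in all 4 were Etv5, the cyclin gene Ccnd1 (ratio 5.27), Ets1 (3.08) and Elk3 (2.66). Of 8 inhibitors 2 were higher in all 4 libraries, Spry1 (1.28) and Spry2 (1.14), 1 was lower, Nf1 (0.571), and Dusp6 had a ratio of 0.855, higher in 2 of 4. In both libraries of plate 2, 3 inhibitors were higher and 4 lower, beside the same 38.4% and 27.9% of all genes, with a list median of −0.27. The ligand Fgf1 was lower in all 4 (0.493). The 13 contractile genes were lower in all 4 libraries, Myh11 among them, which defined the split.

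**Figure D4:**
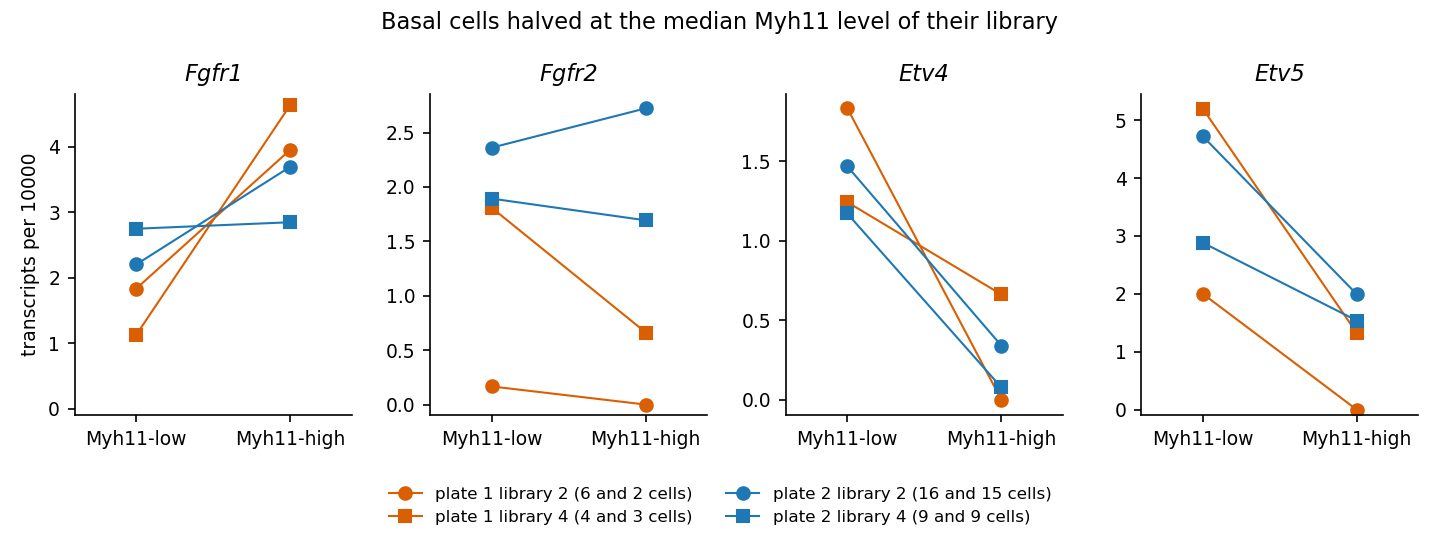
Transcripts per 10000 of Fgfr1, Fgfr2, Etv4 and Etv5 (y axes) in Myh11-low and Myh11-high basal cells; each line joins the values of a library, orange for plate 1 and blue for plate 2, with the numbers of cells in the legend. Etv4 and Etv5 fall from left to right in each of the 4 libraries, Fgfr1 climbs in each, nearly flat in plate 2 library 4, and Fgfr2 climbs in plate 2 library 2 and falls in the other 3 libraries.

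Etv4 was higher in basal cells with Mki67 than in those without. Mki67 was found in 15 of the 64 cells (median 22009 transcripts) and not in 49 (median 9232). Etv4 stood at 1.73 per 10000 in cells with Mki67 against 0.608 in those without, a ratio of 2.84 (1.91 to 4.25), and the thinned shares were 21.6% and 5.91%. By library, the levels were 1.55 against 0.776 in plate 2 library 2 and 1.60 against 0.148 in plate 2 library 4. In plate 1 library 2 the 1 cell with Mki67 held all the Etv4, and plate 1 library 4 had no cell with Mki67. Without plate 2 library 2 the ratio was 4.50. The Myh11 and Mki67 splits overlapped, since Mki67 itself was 6.56 times higher (2.89 to 18.4) in Myh11-low cells, and both followed the well number on plate 2.

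Neither receptor was higher in basal cells with Mki67. Fgfr1 stood at 2.07 against 2.91 per 10000, a ratio of 0.711 (0.545 to 0.920), with 0.684 and 0.685 in plate 2 libraries 2 and 4. Fgfr2 stood at 1.82 against 2.18, a ratio of 0.837 (0.626 to 1.11), with 0.623 and 1.35 in the same libraries, and at 1.30 without plate 2 library 2. Etv5, unlike along Myh11, had a ratio of 1.03 (0.831 to 1.29), with 0.755 and 2.43 in those libraries.

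On plate 2 the Etv4 pattern also followed the number of the well. The 18 basal cells of wells 1 to 24 held 79 Etv4 transcripts, 1.59 per 10000, and the 31 basal cells of wells 25 to 96 held 11, 0.249 per 10000, a ratio of 6.40 (3.39 to 13.3) for a split chosen after the data were seen. The 2 libraries gave 1.56 against 0.403 and 1.65 against 0.0514. All 18 cells of wells 1 to 24 were Myh11-low. Mki67 followed the well number too, at 1.47 against 0.203 per 10000, a ratio of 7.23 (3.61 to 16.4). Within wells 25 to 96, Etv4 was 0.281 in 7 Myh11-low cells (3 transcripts) and 0.238 in 24 Myh11-high cells (8 transcripts), with overlapping intervals. Some of these Myh11-low cells exceeded the 8.60 reached in wells 1 to 24. Library 2 well 52 stood at 8.75, and library 4 wells 60, 90 and 32 at 10.2, 14.1 and 16.6. Those with no Myh11, library 2 wells 33 and 35 and library 4 well 80, held 1, 1 and 0 Etv4 transcripts. So few cells cannot show whether Etv4 follows Myh11 in wells 25 to 96. Low Myh11 and low well number therefore cannot be told apart for Etv4 on this plate. Mki67 overlapped both in part. In wells 1 to 24, library 2 well 14 held 10 Etv4 transcripts and no Mki67, and library 2 well 21 held 4 Mki67 transcripts and no Etv4. Whether Etv4 follows Mki67 within the well groups was not tested. Fgfr1 was 2.28 in wells 1 to 24 and 3.28 in wells 25 to 96, and Fgfr2 was 2.28 and 2.19. What the well number stands for is not given in the labels.

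**Figure D5:**
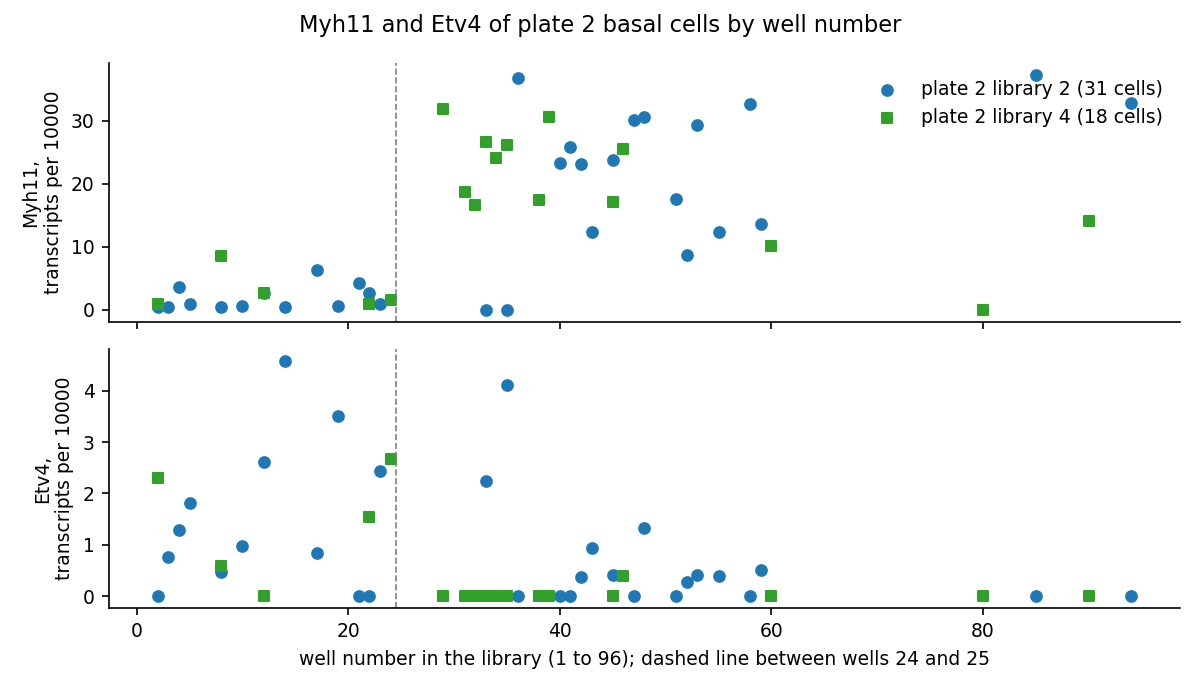
Transcripts per 10000 of Myh11 (top) and Etv4 (bottom) in plate 2 basal cells by well number, with the dashed line between wells 24 and 25; blue circles are the 31 cells of library 2 and green squares the 18 cells of library 4. Cells left of the line are low in Myh11, at most 8.60, and hold 79 of the 90 Etv4 transcripts.

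The genes closest to each of the 3 in pattern were ranked by Pearson's r of log2(CPM + 10) over 11 library-by-class sums, among 8020 genes. For Fgfr2 they were Vmp1 (0.93), Ptn (0.93), Hsd17b4 (0.91), Slc35f6 (0.91) and Ptgfrn (0.90). Ptn, which encodes the growth factor pleiotrophin, stood at 13.7 per 10000 in hormone-sensing, 2.72 in basal and 0.269 in secretory cells. For Etv4 they were Dpysl2 and Tshz2 (0.99 each), Klhl29 (0.99), Hdgfrp3 (0.98) and Tbx2 (0.96), each with 55 to 78 transcripts, nearly all basal. For Fgfr1 the likeness was lower, with Nqo1 (0.87), Alpl (0.85), Sfrp2 (0.84) and Scml4 (0.83) among the closest. Alpl, alkaline phosphatase, stood at 1.95 per 10000 in secretory, 0.629 in basal and 0 in hormone-sensing cells. Among the 3 genes themselves r was −0.64 between the receptors, −0.12 between Fgfr1 and Etv4 and 0.10 between Fgfr2 and Etv4. The sums share libraries, so these values are descriptions.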

How the data were processed

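Cells from micro-dissected ducts and terminal end buds were sorted live and processed by SORT-seq, per the labels' protocols. The authors deposited 1 table of expected counts, that is estimated transcript molecules per gene and well. Of 518737 values above 0, 518732 lay within 1e-06 of the scale expected when 4-base molecular tags are corrected for chance reuse. Per the submitters' processing notes BWA 0.6.2-r126 and the mm10 build were used, with no role or settings given.

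Expected counts were rounded to whole numbers. Spike-ins (81 rows, 11.0% of all counts) were left out. Cells held at least 1500 transcripts and 500 genes, and the 8 libraries had cell medians of 4872 to 21255 transcripts. No doublet caller was run, and in 6 cells the basal sum and the luminal sum each reached 10 transcripts. The same 96 well numbers are used in each library. Sums needed at least 5 cells per library for basal against luminal and 3 for the luminal classes. The quasi-likelihood test of edgeR 4.0.16 was applied in R 4.3.3 after filterByExpr and TMM scaling, with an adjusted p threshold of 0.05 and DESeq2 1.42.0 as an alternative. The luminal fit had the library as block and the plate fit had class as covariate. SEs are approximate, from dividing a log2 change by the square root of its F value. CPM were computed from the tested counts after TMM. Ratio intervals are exact binomial and levels exact Poisson, at 95%. A count of 0 allows up to 3 transcripts or cells. Thinned shares are exact expectations. The fits were tested on simulated data. Genes and lists were chosen with earlier results of these data known. By rule the text names the 3 genes, Mki67, Myh11, the class genes, up to 4 genes of each list past the threshold (lowest p first), up to 2 others with the most transcripts, and 5 per gene by likeness of pattern. For Fgfr1, 1 of these 5 is not reported here. Any other gene was named after its values were seen. Coordinates are from RefSeq's GRCm38.p6 annotation.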

Additional observations from a re-analysis of the deposited data

Results flagged for a closer look

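Fgfr1 and Fgfr2 were also counted in wells that were not kept as cells. In 579 wells under 500 transcripts, Fgfr1 stood at 1.44 and Fgfr2 at 1.80 transcripts per 10000 (12 and 15 transcripts), above the 0.360 that a count of 0 allows, and Etv4 had none. In the 75 other wells not kept, Fgfr1 stood at 2.38 and Fgfr2 at 3.31 (18 and 25 transcripts), above 0.397, and Etv4 had 2 transcripts. In secretory cells the Fgfr2 level of plate 2 library 1, 0.808 per 10000, stood apart from the other 3 libraries and rests on 1 transcript in 3 cells. It was the only value so far from its group among 5 groups of 4 libraries, where chance gives about 1 in 20.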

How the results depend on the processing

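Sizes of the calls moved with the processing, and the cause was not tested. The basal against luminal count of 505 genes became 1511 with no filter on low counts, 835 without cells led by another type's markers, 163 on plate 1 alone, 939 on plate 2 alone, and 436 to 848 with each library left out. The hormone-sensing against secretory count of 241 became 11 to 140 with a library left out (120 without plate 1 library 3), and 231 without the replicate block. The plate count of 2 became 4 with DESeq2, 132 with no filter, 0 without cells led by another type's markers, 0 in basal or luminal sums alone (chosen after seeing the data), 1 with the library number as replicate block, and 0 to 18 with a library left out. Whether library numbers pair the plates could not be decided. Same-numbered deviations correlated at −0.15 in luminal and −0.02 in basal sums, but 2 libraries per class and plate give only 1 value per class. In the plate comparison the change of Etv4 turned to 0.0493 with DESeq2, 0.0882 with no filter and 0.10 without cells led by another type's markers, and ran from −0.45 to 0.30 with a library left out. That of Fgfr1 ran from −0.41 to 0.21 with a library left out and was 0.57 in basal sums alone. That of Fgfr2 passed with no filter (1.45). Etv4 in secretory cells became 0.0331 with cells from 1000 transcripts. With a library left out the Fgfr2 ratio ran from 0.818 to 1.07 for Myh11 and from 0.679 to 1.30 for Mki67, both above 1 without plate 2 library 2. No other alternative turned the direction of a ratio. Larger moves in size came without plate 2 library 2, to 10.1 and 4.50 for the Etv4 ratios of Myh11 and Mki67, and without plate 1 library 3, to 3.07 for Fgfr1 in secretory cells.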
